A study of Mus musculus with 141 samples.

Results

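The genes described here are 4 T cell receptor genes, Trbc1, Trbv12-2, Trbc2 and Trac, in single basophil/mast cell progenitors (BMCP) and granulocyte/monocyte progenitors (GMP) of mouse bone marrow. They are 4 of 46078 gene rows and were chosen by measured values, the read counts of these cells that showed Trbc1 and Trbv12-2 in BMCP, so their levels below are a description. BMCP were live lineage-negative cKit+ Sca1- bone marrow cells with high CD16/32 and high integrin beta7, and GMP were lineage-negative cKit+ Sca1- CD34+ cells high for CD16/32 outside the BMCP gate. All came untreated, as far as the labels say, from 3 female mice of strain C57BL/6, of unstated age. No label ties a cell to a mouse, so each population counts as 1 sample, cells are not replicates and no test was made. Of 94 BMCP and 47 GMP, 89 and 41 passed the filters on depth and quality. Within the kept BMCP, 32 cells with at least 10 Trbc1 reads were set beside the other 57.

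A T cell receptor chain is encoded by variable (V), diversity (D, in beta and delta), joining (J) and constant (C) segments that are joined by DNA recombination in developing T cells. The beta locus holds an array of V genes followed by 2 clusters in series, D1, the J1 segments and Trbc1, then D2, the J2 segments and Trbc2. Transcripts of unrearranged segments, which run from a D or J segment into the constant region or cover a single V gene, are known from lymphoid progenitors and are called germline transcripts. Basophil and mast cell progenitors belong to the myeloid branch, and their known products are granule proteases and the high-affinity IgE receptor.

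The sequences shown first are a coding stretch by which the beta constant genes can be told apart. They are shown because almost all the constant region reads were counted to one of these genes. In exon 1 the genes differed at 1 of 375 bases, at position 260 from the start of the exon. Over the 143 coding bases that follow exon 1 they differed at 22, an identity of 84.6%. Capitals mark the differing bases, and positions 376 to 518 are counted from the first base of exon 1 in the mm10 annotation (GENCODE vM21, plus strand).
Trbc1, bases 376 to 518: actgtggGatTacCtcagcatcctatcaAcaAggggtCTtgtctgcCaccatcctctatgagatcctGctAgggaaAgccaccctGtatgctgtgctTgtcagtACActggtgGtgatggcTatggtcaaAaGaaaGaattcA
Trbc2, bases 376 to 518: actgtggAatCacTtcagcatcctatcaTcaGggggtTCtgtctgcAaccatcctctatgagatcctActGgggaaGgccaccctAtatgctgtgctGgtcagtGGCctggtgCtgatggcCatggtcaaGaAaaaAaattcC
Of the 50-base windows of the Trbc1 transcript, the length of a read in this study, 41.1% also occurred in Trbc2. The sources used here do not give how reads that match both were assigned, so a part of the constant region count could belong to either gene.

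The J1 segments and D1 are shown because their reads came with Trbc1 in the same cells. Capitals mark TTTGG or TTCGG on the coding strand, letters that spell the start of the joining segment's conserved phenylalanine and glycine motif. The letters were present in 5 of the 7 J1 segments and in 62 of 80 annotated T cell receptor J rows (77.5%), with no other motif searched.
Trbd1, chr6:41533201-41533212: gggacagggggc
Trbj1-1, chr6:41533864-41533911: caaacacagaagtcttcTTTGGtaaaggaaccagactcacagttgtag
Trbj1-2, chr6:41534001-41534048: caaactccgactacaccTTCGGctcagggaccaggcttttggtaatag
Trbj1-3, chr6:41534323-41534376: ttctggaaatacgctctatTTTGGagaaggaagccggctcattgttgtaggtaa
Trbj1-4, chr6:41534811-41534861: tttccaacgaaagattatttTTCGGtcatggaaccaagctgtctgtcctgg
Trbj1-5, chr6:41535084-41535133: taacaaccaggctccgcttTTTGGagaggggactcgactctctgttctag
Trbj1-6, chr6:41535554-41535606: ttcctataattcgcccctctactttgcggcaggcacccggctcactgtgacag
Trbj1-7, chr6:41535642-41535687: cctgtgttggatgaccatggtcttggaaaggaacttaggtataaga
Trbd1 and several J segments are no longer than a 50-base read, so a read counted to them also covers bases outside the segment. Counts per row do not show where a read ends, the library kit keeps no strand, and whether any allele was rearranged was not tested.

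Depth was given by the summed nuclear-encoded gene counts, with levels as CPM, a gene's counts scaled to a total of 1000000 of these. The kept BMCP held 96129 to 2416630 counts (median 893037) and the kept GMP 130191 to 3688848 (median 1309887). No pair of cells had identical counts. The 3 counts that a count of 0 allows correspond to 0.0356 CPM over the BMCP and 0.0540 CPM over the GMP. Limits given below are exact 95% limits. For levels they are Poisson limits, which treat reads as independent although the reads carried no molecular identifiers. They leave out the spread between cells. For shares of cells they are Clopper-Pearson limits, which treat cells as independent. Neither kind covers differences between mice. The populations mostly matched their labels by their defining genes. Gzmb, a granule protease of mast cells, was above 1000 CPM in 28 of the 32 Trbc1 BMCP and 50 of the other 57. No GMP reached this level of Gzmb. Gata2, a transcription factor of both lineages, was above 1000 CPM in 26 and 43 of these BMCP and in 4 of 41 GMP. Cpa3, a carboxypeptidase of mast cells and basophils, was above 1000 CPM in 12 of 41 GMP. Mpo, a granule enzyme of early granulocytes, had at least 10 reads in all 41 GMP and in 10 of the 89 BMCP.

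Trbc1, the first constant region gene of the beta chain (ENSMUSG00000076490, chr6:41538218-41539881, plus strand), was read in part of the BMCP and almost nowhere in the GMP. Its 7240 reads in the kept BMCP made 85.9 CPM (83.97 to 87.95), and a single read was found in the GMP, 0.018 CPM (0.000456 to 0.1004). On the scale of log2(CPM + 1) the difference was 6.42 (6.27 to 6.47). Among all 14554 genes with at least 1 CPM in either population, 25.8% were higher in BMCP by 2-fold or more and 21% lower, around a median difference of 0.04.

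Most BMCP had either many Trbc1 reads or next to none. At least 10 reads were present in 32 of 89 cells (35.96%, 26.1 to 46.8%) and in 0 of 41 GMP (up to 8.60%). Of the other BMCP, 42 had no read, 14 had 1 read and 1, number 61, had 2. The 32 cells ranged from 10 to 758 reads with a median of 183.5, or from 7.49 to 1003 CPM with a median of 186 CPM. The limit of 10 reads lies in a gap: the cells just inside it had 10 (numbers 44 and 26), 16 (number 34) and 20 reads (number 83), and the next cell below had 2. The 5 cells with the most reads held 40.6% of all Trbc1 reads and the highest cell, number 47, held 10.5%.

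The split was also seen at equal depth. Trbc1 and the log2 total counts of a cell had a Pearson correlation of 0.06 over the 89 BMCP. After each cell was thinned to 200000 counts, 27 of 86 BMCP and 0 of 40 GMP still had 10 Trbc1 reads. BMCP numbered 1 to 47 held 18 such cells of 44, at 110.8 CPM over all 44, and BMCP numbered 48 to 94 held 14 of 45, at 70.9 CPM. The limits of the share were 26.3 to 56.8% in the first numbers and 18.2 to 46.6% in the second. Their overlap does not show the shares to be alike.

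**Figure D1:**
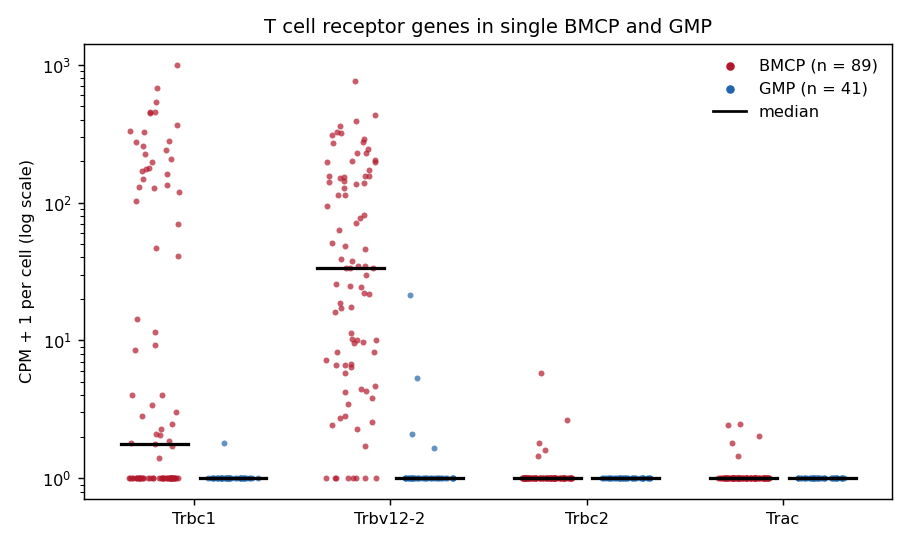
Levels of the 4 genes in single cells, as CPM + 1 on a log scale, with each point a cell (89 BMCP in red, 41 GMP in blue) and the black bar the median. For Trbc1 most of the 32 BMCP with at least 10 reads lie well above 1 and most others near 1. These sets meet at the low end, with number 44 of the 32 at 7.49 CPM and number 77, with 1 read, at 8.22 CPM. Trbv12-2 spreads over the whole range. Trbc2 and Trac are low in all cells, the highest being Trbc2 in number 9 at 4.79 CPM.

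The other constant region genes were almost silent. Trbc2 (ENSMUSG00000076498, chr6:41546730-41548352), the constant gene of the second cluster, had 6 reads in 5 BMCP, 2 in number 9 and 1 each in numbers 47, 28, 67 and 49, and none in GMP. All 5 cells were among the 32 with Trbc1, at 217 to 758 Trbc1 reads. Trac (ENSMUSG00000076928, chr14:54220521-54224206), the constant region of the alpha chain that pairs with beta on T cells, had 5 reads in 5 BMCP, 1 of them with Trbc1, and none in GMP. Neither gene reached 10 reads in any cell, which allows a share of up to 4.06% of BMCP. Per kilobase of exon, Trbc1 had 9666 reads in the kept BMCP, Trbc2 had 8.67 and Trac 5.35. The delta constant gene Trdc had 2 reads in BMCP, and of the gamma constant genes 1, Tcrg-C2, had reads, all 21 in BMCP number 33, which had fewer than 10 Trbc1 reads.

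The D and J rows of the first cluster followed Trbc1. Trbj1-1, the first J segment, lies nearest to D1; it had 2155 reads in BMCP and 1 in GMP, with at least 10 reads in 26 of the 32 Trbc1 cells and in 3 of the other 57. In the Trbc1 cells its level ran from 0 to 218 CPM around a median of 54.2 CPM, and in the other cells from 0 to 86.8 CPM around a median of 0. Trbj1-2 had at least 10 reads in 19 against 4 cells, and Trbj1-3 to Trbj1-7 in 10 to 13 against 2 to 4. Trbd1, the first diversity segment, had at least 10 reads in 12 of 32 Trbc1 cells and in none of the other 57 (up to 6.27%), and any read in 18 against 1. All 8 of these rows were at least 2-fold higher in the Trbc1 cells, from 2.30 (Trbj1-3) to 4.26 (Trbj1-1) on the log2(CPM + 1) scale. Of the 13780 genes outside the T cell receptor loci with at least 1 CPM in either set, 17.3% were higher by 2-fold or more and 22% lower, around a median of -0.06. Trbd2 and the 7 J2 rows had no read in any kept cell.

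Across 8154 genes with at least 10 reads in at least 10 BMCP, the 7 with the highest Pearson correlation with Trbc1 over the 89 cells were Trbj1-1 (0.85), Trbd1 (0.68), Trbj1-2 (0.60), Trbj1-5 (0.50), Trbj1-6 (0.46), Trbj1-7 (0.45) and Trbj1-4 (0.44). The eighth was Btbd1 at 0.39, the first gene outside the locus. The remaining J1 row, Trbj1-3, was at 0.34, rank 15, behind Btbd1 and further genes outside the locus. All values share the cells' libraries and totals, and these rows lie within 5.01 kb of Trbc1.

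The J1 rows came in a few patterns, which were described after their values were seen, counting a row as read at 3 or more reads. All 7 rows were read in 11 of the 32 Trbc1 cells. An example is number 67, with 598 Trbc1 reads and from 33 reads (Trbj1-3) to 122 reads (Trbj1-1) in the J1 rows. In 8 cells only Trbj1-1 was read, among them number 47, with 758 Trbc1 reads, 217 Trbj1-1 reads and none in the other 6 J1 rows. In 6 cells Trbj1-1 and Trbj1-2 were read and no other, as in number 66 with 38 and 34 reads beside 410 of Trbc1.

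Another 4 cells showed other sets. Number 50 had 75 Trbj1-2 reads with 1 of Trbj1-1, number 16 had only Trbj1-4 to Trbj1-7 (7 to 17 reads), number 28 had Trbj1-1 and Trbj1-4 to Trbj1-7 but no Trbj1-2 or Trbj1-3, and number 92 lacked only Trbj1-3. The last 3 cells had no J1 row at this limit, and their Trbc1 reads were 10, 10 and 162. Cells of the 3 main patterns overlapped in Trbc1: medians were 134 reads with all 7 rows, 183.5 with Trbj1-1 only and 220.5 with Trbj1-1 and Trbj1-2. Trbd1 had 3 or more reads in 7 of 11, 5 of 8 and 3 of 6 cells of these patterns.

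J1 rows with 3 or more reads were rare in cells without 10 Trbc1 reads. At least 1 J1 read was present in 22 of the 57 other BMCP, against 29 of the 32 Trbc1 cells. Among the 57 other BMCP, 5 had 3 or more reads in a J1 row. All 7 rows were read in numbers 27, 37 and 70, at 5 to 28 reads a row and 0 or 1 Trbc1 read. Number 1 had 30 to 74 reads in Trbj1-1 to Trbj1-4 and none in the last 3 rows, and number 73 had 41 and 58 reads in Trbj1-6 and Trbj1-7 alone. Neither of these had a Trbc1 read.

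**Figure D2:**
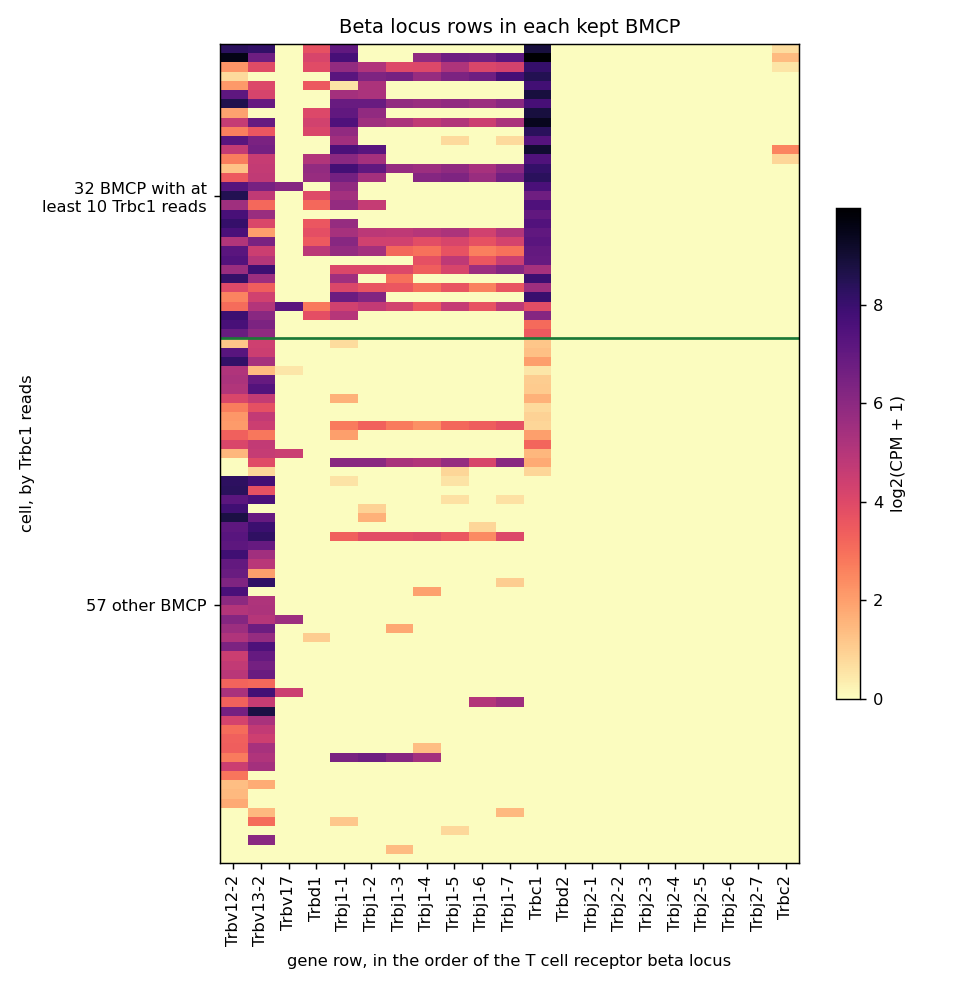
Levels of beta locus rows, as log2(CPM + 1) by colour, in the 89 kept BMCP (rows, ordered by Trbc1 reads and then Trbv12-2 reads) with genes in locus order (columns); the green line divides the 32 cells with at least 10 Trbc1 reads from the other 57. Trbd1 and the J1 columns are filled mostly above the line, the V gene columns are filled on both sides, and Trbd2 and the J2 columns are empty.

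V genes showed another distribution. Trbv12-2 (ENSMUSG00000094525, chr6:41118851-41119364), which encodes a variable segment 419 kb before Trbc1, had 7954 reads in BMCP, 94.4 CPM (92.4 to 96.5), and 44 reads in GMP, 0.79 CPM. At least 10 reads were found in 53 of 89 BMCP and 2 of 41 GMP, and any read in 81 BMCP and 4 GMP. Over BMCP the level ran from 0 to 760 CPM with a median of 32.4 CPM. Over GMP it ran from 0 to 20.4 CPM with a median of 0, so the populations overlapped at the low end. The GMP with at least 10 reads were numbers 24 and 30, with 30 and 11. Gata2 stood at 1789 and 2144 CPM in them, against a GMP median of 18.9 CPM. Gata2 was over 1000 CPM in 4 GMP, and the others, numbers 8 and 20, had no Trbv12-2 read.

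Trbv12-2 was present both with and without Trbc1. It had at least 10 reads in 23 of the 32 Trbc1 cells (71.9%, 53.3 to 86.3%) and in 30 of the other 57 (52.6%, 38.97 to 66.02%). The limits overlap, which does not show the shares to be alike. Its summed level was 131.8 CPM in the Trbc1 cells and 69.3 CPM in the others, a difference of 0.92 on the log2(CPM + 1) scale, under 2-fold. After thinning, the counts were 17 of 32 and 19 of 54. Its correlation with Trbc1 over the 89 BMCP was 0.18, rank 428 among the 8154 genes.

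Trbv13-2, the V gene 2.03 kb further on, was closer to Trbv12-2 than either was to Trbc1. It had 5469 reads in BMCP (64.9 CPM) and 139 in GMP (2.50 CPM), with at least 10 reads in 65 of 89 and 2 of 41 cells. These GMP were again numbers 24 and 30, with 81 and 49 reads. The Trbc1 cells held 63.2 CPM and the others 66.1 CPM, with 26 of 32 and 39 of 57 cells at 10 reads. Both V genes had 10 reads in 47 BMCP, only Trbv12-2 in 6, only Trbv13-2 in 18 and neither in 18. Their correlation over the 89 cells was 0.52. Per kilobase of exon, Trbv12-2 had 20660 reads and Trbv13-2 16085.

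**Figure D3:**
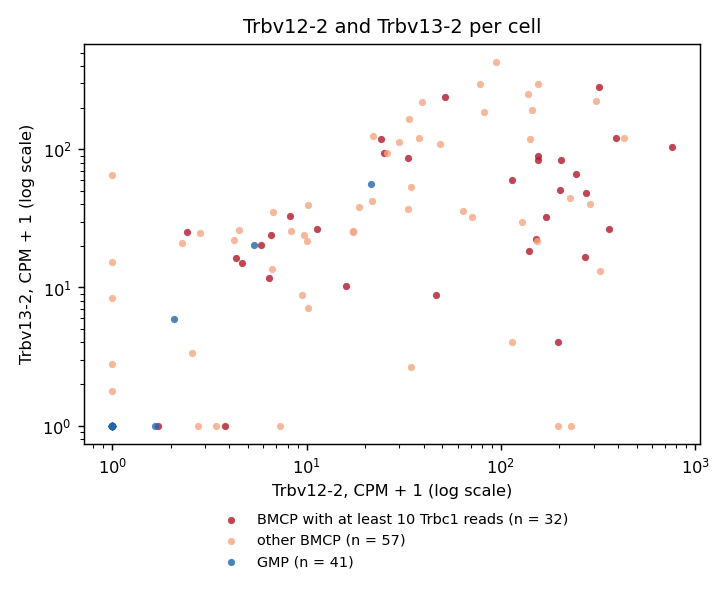
Trbv12-2 against Trbv13-2 in each cell, both as CPM + 1 on log scales, for 32 BMCP with at least 10 Trbc1 reads (dark red), 57 other BMCP (light red) and 41 GMP (blue). Both BMCP sets spread over the same area, and 47 of the 89 BMCP have 10 reads of each gene.

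Of the 32 Trbc1 cells, 28 had 10 reads of at least one of these V genes and 4 of neither, while 43 BMCP had a V gene without 10 Trbc1 reads. The other beta V rows were read in few cells. Trbv17 had 347 reads, of which number 83 held 224, and Trbv16, Trbv9 and Trbv15 had 121, 117 and 52 reads, at least 98% or all of them in 1 cell each and none of these a Trbc1 cell. Trbv1, the first V gene of the locus, had no read in BMCP and 126 in GMP. In all, 13 of 34 beta V rows had a read in BMCP, with 14097 reads against 309 in GMP.

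Alpha and delta V rows were also read, almost without the J rows of their loci. The alpha V rows had 2699 reads in BMCP and 440 in GMP, in 13 of 130 rows, and the 60 alpha J rows had 1 read. Trav17 had 896 reads with at least 10 in 1 of 32 Trbc1 cells and 7 of the other 57, and Trav6-3 had 387 reads with at least 10 in 3 and 9. Trdv4, a delta V gene, had 2067 reads with at least 10 in 2 and 6 cells. Other rows went the other way by count: Trav6d-3 had at least 10 reads in 4 of 32 Trbc1 cells and 1 of the other 57, and B230359F08Rik in 6 and 5. Trav18 had 1 and 2 such cells. The limits of the shares overlapped for each of these 6 rows, which does not show the shares to be alike. The 6 rows had no common direction. Gamma J and V rows and delta D and J rows had no read.

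Genes next to the beta locus were compared because they share its chromosome region. On the 3′ side, Ephb6, a receptor of the ephrin family 47.0 kb past the locus, stood at 43.2 CPM over BMCP against 3.19 CPM over GMP, and at 63.7 CPM in the Trbc1 cells against 29.4 CPM in the others. It had 10 reads in 9 of 32 and 6 of 57 cells. Kel, a blood group protease gene 128 kb past the locus, stood at 92.2 CPM over BMCP against 0.49 CPM over GMP. By summed level Kel was lower in the Trbc1 cells (66.4 CPM, with 48.4% of the reads in number 34) than in the others (109.5 CPM). By count it was not lower, with 10 reads in 10 of 32 and 15 of 57 cells. On the 5′ side Agk, a mitochondrial lipid kinase gene 494 kb before the locus, was at 52.4 CPM in the Trbc1 cells and 16.4 CPM in the others, a log2(CPM + 1) difference of 1.62, with 10 reads in 8 of 32 and 9 of 57 cells. Ssbp1, a mitochondrial DNA-binding protein gene, was at 98.3 and 94.3 CPM in BMCP and GMP, and at 100.6 and 96.8 CPM in the Trbc1 cells and the others. Mgam, the nearest of the 5 neighbours taken on that side, was without reads in BMCP, against 6.34 CPM in GMP.

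The CD3 genes, whose products carry the receptor chains to the cell surface, were almost absent. Of the 14 genes of the T cell receptor complex and T cell surface list, Cd3d, Cd3g, Cd8a, Cd8b1, Cd5, Cd6, Cd28 and Ptcra had no read in any kept BMCP, and Cd3e, Cd2 and Cd4 had 3, 2 and 1. The remaining 3 had at least 1 CPM in either set. Cd247, the zeta chain, was at 1.42 CPM in the Trbc1 cells, all in number 9, and at 22.5 CPM in the others, or 10.02 CPM without number 40. Cd27, a receptor of the tumour necrosis factor family that stem and progenitor cells also carry, was at 164 and 257 CPM, with 10 reads in 16 of 32 and 23 of 57 cells. Within numbers 1 to 47 Cd27 was higher in the Trbc1 cells, by 0.87 on the log2(CPM + 1) scale. Thy1 reads lay almost all in number 44. The summed level of the list ran from 0 to 1042 CPM in the Trbc1 cells (median 33.6) and from 0 to 1934 CPM in the others (median 5.83). Over GMP it ran from 0 to 1690 CPM (median 216). Since 11 of the 14 genes had at most 3 reads in BMCP, this sum rests on Cd27, Cd247 and Thy1 there.

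Signalling genes shared by T cells and mast cells were present at like levels in both BMCP sets. Of 19 listed, 17 were measured, none was higher in the Trbc1 cells by 2-fold or more and 2 were lower, around a median difference of -0.01. Among all genes 17.3% were higher by 2-fold or more and 22% lower, shares that apply to each list count below. Lat, the adaptor that links either receptor to calcium signalling, was at 298 and 300 CPM, and 24.95 CPM in GMP. Lat2 was at 677 and 744 CPM and Plcg1 at 316 and 436 CPM. Among the lower ones was Prkcq, a protein kinase C, at 54.3 CPM in the Trbc1 cells, or 35.8 CPM without number 23, and at 147 CPM in the others. Zap70, the kinase that binds the zeta chain in T cells, had 1 read in BMCP and Themis none. Lck reads in the other BMCP lay all but entirely in number 69: the level was 20.9 CPM in the Trbc1 cells, 13.3 CPM without number 9, and 26.02 CPM in the others, or 0.041 CPM without number 69.

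The recombination machinery was mostly its general DNA repair part. Rag1 had 4 reads in 2 BMCP and Dntt, the enzyme that adds bases at junctions, none. Rag2 had 624 reads, all in number 70, which had no Trbc1 read. Of 13 genes 11 were measured, 1 was higher (Lig4, from number 72 alone) and 3 were lower (Rag2, Prkdc and Nhej1), with a median of 0.15; the lower share is near the 22% of all genes. Prkdc, the DNA-dependent kinase, was at 19.7 CPM in the Trbc1 cells, or 12.03 CPM without number 23, and at 79.1 CPM in the others.

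The T lineage factors were of mixed level. Tcf7 and Lef1 had 1 read each in BMCP and Bcl11b, which fixes T cell identity, had 5. Of 19 genes 15 were measured, none was higher by 2-fold or more and 5 were lower, around a median of -0.30, beside 17.3% higher and 22% lower among all genes. Gata3, a factor of T cells and of other lineages, was at 0.53 CPM in the Trbc1 cells and 21.2 CPM in the others (13.2 CPM without number 82), with 10 reads in 0 and 5 cells. Hes1, a Notch target, was at 50.1 and 163 CPM, with 10 reads in 12 of 32 and 33 of 57. The other lower ones were Ets1, Zbtb7b and Id3. Runx1, a factor of blood progenitors and T cells, was at 853 and 787 CPM.

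The defining markers listed for other lymphoid cells were mostly at or near 0, with Gzmb placed among the mast cell genes instead. Natural killer and innate lymphoid genes had 5 of 16 measured, with 0 higher and 3 lower (Icos, Il7r and Klrg1). Their median was -1.34, but 0 within BMCP numbers 1 to 47 and -0.043 within numbers 48 to 94. Of the 16 genes, 8 had no read in BMCP. The exceptions were Nkg7, a granule membrane protein, at 1411 and 1033 CPM and 1128 CPM in GMP, and Rora, a nuclear receptor, at 136 and 67.7 CPM. B cell genes had 3 of 11 measured, with 2 higher and a median of 1.66. Among all genes 17.3% were higher and 22% lower. Cd79a, a B cell receptor signalling chain, had 10 reads in 4 of 32 Trbc1 cells and in none of the others, at 6.65 and 0.14 CPM. Its partner Cd79b was at 97.2 CPM, or 62.4 CPM without number 12, and at 30.1 CPM, or 19.5 CPM without number 64, with 10 reads in 4 and 3 cells, and at 101.6 CPM in GMP. Ms4a1, Cd22 and Igll1, further B cell genes, had no read in BMCP.

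**Figure D4:**
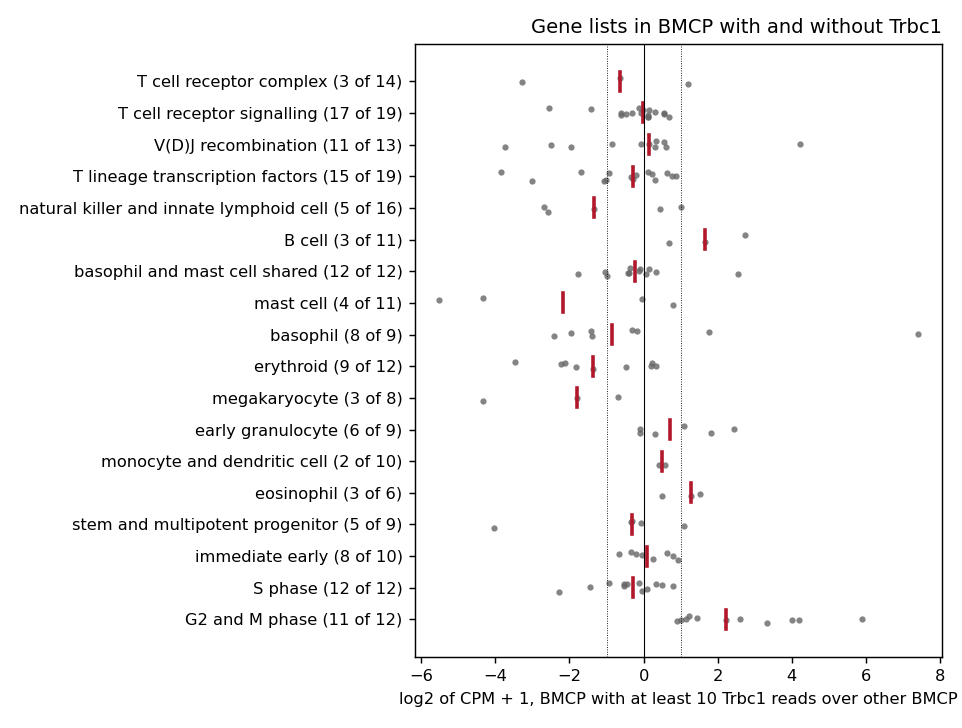
Difference between the 32 BMCP with at least 10 Trbc1 reads and the other 57 for each gene list, as log2 of CPM + 1 of the summed reads. Grey points are listed genes with at least 1 CPM in either set (their number of the listed number stands in parentheses), red bars are list medians and dotted lines mark 2-fold; the T cell signalling median lies at -0.01, the mast cell median at -2.18 (4 genes; -0.0053 in numbers 48 to 94) and the G2 and M phase median at 2.22 (-2.37 without numbers 29 and 44).

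The proteases Cma1 and Mcpt8 were lower in the Trbc1 cells by summed level. Cma1, a mast cell chymase, was at 53.3 CPM in the Trbc1 cells, or 34.9 CPM without number 4, and at 2487 CPM in the others, or 1822 CPM without number 36. In single cells it ran from 0 to 2140 CPM (median 6.06) in the Trbc1 cells and from 0 to 34300 CPM (median 24.4) in the others. At least 10 reads were found in 12 of 32 (37.5%, 21.1 to 56.3%) and 33 of 57 cells (57.9%, 44.1 to 70.9%), and over 1000 CPM in 1 and 12 cells. Most cells of the other set thus lay within the range of the Trbc1 cells, and the cells highest in Cma1 were among those with fewer than 10 Trbc1 reads. After thinning, 6 of 32 and 22 of 54 cells had 10 Cma1 reads.

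Mcpt8, a basophil protease, was at 187 CPM in the Trbc1 cells, or 54.4 CPM without number 15, and at 1011 CPM in the others. It was over 1000 CPM in 1 of 32 and 8 of 57 cells, and had 10 reads in 6 and 16. Cyp11a1, a steroid-producing enzyme listed with the basophil genes, was at 305 and 797 CPM, and over 1000 CPM in 2 and 17 cells. Of 9 basophil genes 8 were measured, with 2 higher and 4 lower, beside 17.3% higher and 22% lower among all genes. Their median was -0.85. The higher ones were Cebpa (42.9 and 11.8 CPM, the latter 1.85 CPM without number 27), a granulocyte factor, and Prss34, whose reads in the Trbc1 cells all lay in number 12. Il4 was among the lower ones, at 13.96 and 38.99 CPM.

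Most genes that both lineages share were within 2-fold. Of 12, all were measured, 1 was higher (Hgf) and 2 lower, beside 17.3% higher and 22% lower among all genes. The median of the 12 was -0.25. Cpa3, a carboxypeptidase of mast cells and basophils, was at 3434 CPM in the Trbc1 cells and 7072 CPM in the others, with medians over cells of 2401 and 2882 CPM and 10 reads in every cell of both sets. Fcer1a, the IgE-binding chain, was at 51.5 and 178 CPM, with 10 reads in 7 of 32 and 10 of 57 cells, but within numbers 48 to 94 it was 1.91 higher in the Trbc1 cells on the log2(CPM + 1) scale. Gata2 was at 1973 and 2157 CPM and Kit, the stem cell factor receptor, at 1283 and 1381 CPM. Of the 11 mast cell genes 4 were measured, with 0 higher and 2 lower, Cma1 and Tpsb2, the latter from number 36 alone. Their median was -2.18, but -0.0053 within numbers 48 to 94 and -0.041 with no filter on low genes. Gzmb, also on this list, was at 6407 and 6589.5 CPM.

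**Figure D5:**
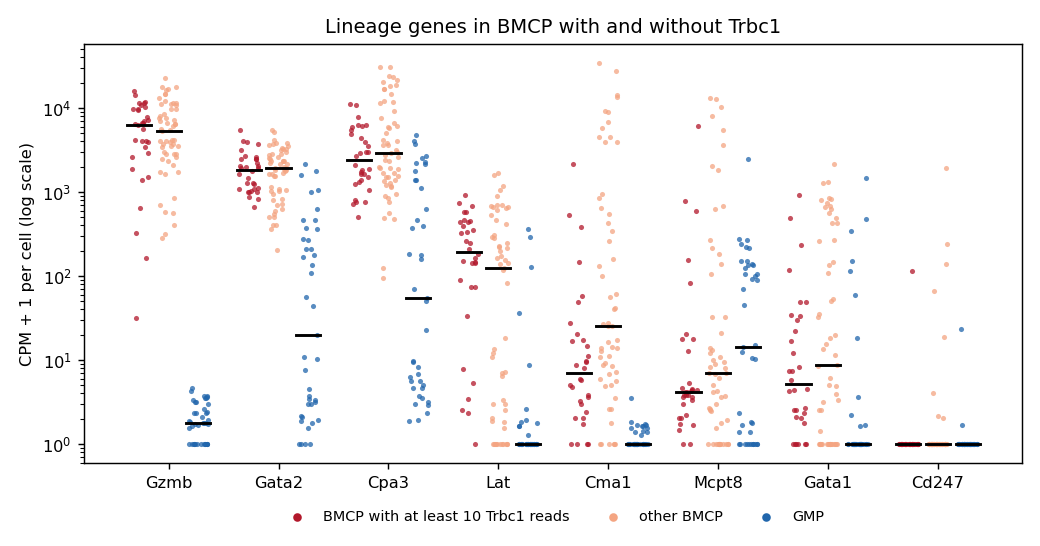
Lineage genes in single cells, as CPM + 1 on a log scale, with each point a cell (32 BMCP with at least 10 Trbc1 reads in dark red, 57 other BMCP in light red, 41 GMP in blue) and the black bar the median. The points of Gzmb, Gata2, Cpa3 and Lat in the BMCP sets largely overlap, with Cpa3 medians of 2401 and 2882 CPM but summed levels of 3434 and 7072 CPM, while the cells over 1000 CPM of Cma1 and Mcpt8 are mostly among the 57 (12 and 8, against 1 and 1).

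Of 12 erythroid genes 9 were measured, with 0 higher, 5 lower and 4 within 2-fold, beside 17.3% higher and 22% lower among all genes. Their median was -1.37, and -0.64 after thinning or -0.47 with no filter on low genes. Gata1, a factor of erythroid, megakaryocyte, mast and basophil cells, was at 57.01 and 204 CPM, with 10 reads in 12 of 32 and 25 of 57 cells. Klf1, an erythroid factor, was at 20.8 and 94.0 CPM, and the Trbc1 value was 8.15 CPM without number 7. Epor and Tfrc were also among the lower ones. Car1 was at 186 and 257 CPM, with 10 reads in 13 and 18 cells. Of the 8 megakaryocyte genes 3 were measured, with 0 higher and 2 lower. Their median was -1.80, with -3.04 within BMCP numbers 1 to 47 and -0.24 within numbers 48 to 94.

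The remaining lists were small or uneven, and their counts stand beside 17.3% higher and 22% lower among all genes. Early granulocyte genes had 6 of 9 measured, 3 higher (Ctsg, Prtn3 and Ms4a3, each with over 70% of the Trbc1 set's reads in 1 cell) and a median of 0.70. Eosinophil genes had 3 of 6 measured and 2 higher, both from number 72, with a median of 1.29. Monocyte and dendritic cell genes had 2 of 10 measured and none past 2-fold (median 0.49). Stem and multipotent progenitor genes had 5 of 9 measured, 1 higher (Hoxa9, 85.2 and 39.8 CPM, the latter 25.4 CPM without number 90) and 1 lower (Hlf), with a median of -0.32. Immediate early genes, which mark handling stress as well as signalling, had 8 of 10 measured and none past 2-fold in either direction (median 0.09).

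Cell cycle genes rested on a pair of cells. S phase genes, all 12 measured, had 0 higher and 2 lower with a median of -0.30, beside 17.3% higher and 22% lower among all genes. G2 and M phase genes had 11 of 12 measured and 10 higher, with a median of 2.22, but numbers 29 and 44 in the Trbc1 set held 1434 and 1582 CPM of Mki67, a marker of dividing cells. Without both the median was -2.37.

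Outside the lists, genes were named by a fixed rule on size, spread over cells and direction within BMCP numbers 1 to 47 and 48 to 94 alike, which 371 genes that were higher in the Trbc1 cells by 2-fold or more passed, and 319 that were lower. The largest higher differences were Zkscan6, a zinc finger gene (110 and 2.68 CPM, 10 reads in 8 and 2 cells), Polr3f, a subunit of RNA polymerase III (129 and 5.63 CPM, 8 and 2 cells), and Atg9a, an autophagy membrane protein (45.1 and 2.64 CPM, 10 and 3 cells). The others were Exoc8, Erich1, Tbc1d14, Mroh1, Lpp, Mrps25, Trmt11, Rabepk and Prr12, at 2.81 to 3.43 on the log2(CPM + 1) scale. After Cma1 the largest lower differences were Prpf4, a splicing factor (2.04 and 108 CPM, 2 and 15 cells), Soat1, a cholesterol-esterifying enzyme (5.23 and 82.9 CPM, 3 and 15 cells), and Nek9, a mitotic kinase (12.3 and 167 CPM, 6 and 19 cells). Without the highest cell of each set Zkscan6 was at 88.4 and 0.86 CPM, Polr3f at 101.7 and 2.23 CPM, Atg9a at 27.2 and 1.83 CPM, Prpf4 at 1.31 and 93.7 CPM, Soat1 at 2.13 and 69.6 CPM and Nek9 at 7.396 and 143.6 CPM. Prkcb, Prkx, Amn1, Fh1, Fam168a, Zrsr2, Tug1 and Phactr4 followed, at -3.46 to -2.94. A limit of 2 Trbc1 reads moves only number 61 into the Trbc1 set. Prpf4 was then at -1.94 (from -5.17), Prkx at -0.95 (from -3.19), Zrsr2 at -2.11 (from -2.95) and Fh1 at -2.40 (from -3.04). A limit of 50 reads left 28 Trbc1 cells. Polr3f was then at 2.04 (from 4.29), Exoc8 at 1.99 (from 3.43) and Mroh1 at 2.06 (from 3.27). Atg9a, Lpp and Prr12 were larger at that limit, at 3.90, 3.41 and 3.07. After thinning Zkscan6 was at 2.95 (from 4.92). Since 17.3% and 22% of all genes passed 2-fold between these cell sets, each of these is a description of 32 and 57 cells.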

How the data were processed

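Single-cell libraries were made from oligo-dT primed cDNA with ERCC spike-ins and 23 PCR cycles and sequenced as single 50-base reads, per the labels' protocols. GSNAP, HTSeq 0.5.3p3 and mm10 are named in the submitters' processing notes. The deposited values are whole read counts per gene. Rows that name no gene stayed out of all totals: __no_feature held 15.3%, __ambiguous 4.57%, __not_aligned 29.4% and __alignment_not_unique 0% of the kept cells' reads. Kept cells had at least 50000 nuclear-encoded counts and 1000 genes, at most 10% mitochondrial and at most 50% spike-in reads; 5 BMCP and 6 GMP were left out, none with 10 Trbc1 reads. Levels are CPM of summed reads, with exact Poisson or Clopper-Pearson limits (95%, scipy 1.17.1). Differences are log2(CPM + 1), for genes with at least 1 CPM in either set. Gene rows were matched to GENCODE vM21 (45143 of 46078). Doublets were not called, since cells were sorted singly into wells.

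Named genes outside the lists are the 12 largest differences in each direction with at least 20 CPM and 10 reads in at least 25% of the cells of the higher set, under 50% of reads in any 1 cell, and the same sign when cells were averaged and within BMCP numbers 1 to 47 and 48 to 94. Likeness names the 8 highest correlations with Trbc1. The members, lists and rules were chosen with earlier results of these data known. The summed-read differences were tested on Poisson counts simulated from each gene's pooled level, with set fold changes in genes of at least 20 CPM. Such counts lack the unevenness between cells seen here, so they check the arithmetic only. Some listed genes are not reported here by name.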

Additional observations from a re-analysis of the deposited data

How the results depend on the processing

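The log2 difference of Trbc1 between BMCP and GMP was 9.51 with a pseudocount of 0.1 CPM, 6.78 with BMCP numbers 1 to 47 alone and 6.14 with 48 to 94 alone. The share of BMCP with Trbc1 stayed between 31.1% and 40.9% under the 6 alternatives. At a filter of 10 CPM, which tests fewer genes, 1766 genes were at least 2-fold lower in the Trbc1 cells, against 3028. The T cell receptor complex median, which rests on 3 genes, turned to 0.027 with no filter and 0.87 for numbers 1 to 47. For single lists and genes, 18 alternatives reversed the sign; the causes were not tested. The G2 and M phase median was -0.040 at a limit of 50 reads, -4.02 after thinning, -2.75 for numbers 48 to 94 and -2.37 without numbers 29 and 44, the last added after seeing the data. The S phase median was 0.028 after thinning and 0.12 for numbers 1 to 47. Mki67 was at -4.02 after thinning and -2.56 for numbers 48 to 94. Lat was at 0.17 at 50 reads, 0.15 after thinning and 0.10 for numbers 48 to 94. Lck was at 1.19 after thinning, 1.18 with the mean of the cells' CPM and 5.24 for numbers 1 to 47. Cd27 was at 0.87 for numbers 1 to 47, Fcer1a at 1.91 for numbers 48 to 94, and Prss34 at -0.55 for numbers 48 to 94 and -0.49 without its highest cell. No paired analysis was possible because the results come from no test and the cell numbers pair no cells. Depth limits what a count of 0 shows to the floors given above, and 1 sample per population leaves differences between animals unmeasured.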
